A study of Mus musculus with 12 samples.

Results

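The clustered histone genes are the genes that encode the core histones H2A, H2B, H3 and H4 and the linker histone H1 in the large histone gene clusters. They were taken by symbol, as every gene whose symbol starts with Hist1h, Hist2h, Hist3h or Hist4h. Of 70 such symbols in the reference gene table, 68 were measured among the 48795 genes of the files, and Hist1h2bh and Hist1h2bm were not analysed here. The 68 comprise 6 H1, 20 H2A, 17 H2B, 12 H3 and 13 H4 genes. By cluster, 54 belong to Hist1 (chromosome 13), 10 to Hist2 (chromosome 3), 3 to Hist3 (chromosome 11) and 1 to Hist4 (chromosome 6). The cells were C2C12, an established mouse myoblast line that fuses into multinucleated myotubes, differentiated for 5 days. The gRc+H2O2 group received 10 µM ginsenoside Rc (gRc, a ginseng saponin) for 18 h and then 0.25 mM H2O2 for 6 h, although a second label of that group reads 24 h for the gRc pretreatment. The H2O2 group received the vehicle for 18 h and then 0.25 mM H2O2 for 6 h, the gRc group received 10 µM gRc for 24 h, and the vehicle group received 0.02% DMSO for 24 h. Each group had 3 libraries of poly(A)-selected RNA sequenced as 100-base paired ends.

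In dividing cells these genes are transcribed mainly in S phase, under the coactivator NPAT and cyclin E/CDK2, when new DNA has to be packed into nucleosomes. Their transcripts are the main class of metazoan mRNA without a poly(A) tail. The 3′ end is formed by cleavage just after a conserved stem-loop, which the stem-loop binding protein SLBP holds, and the same element leads to rapid decay of the mRNA when DNA synthesis stops. Myotubes have left the cell cycle. Some clustered histone genes also have polyadenylation signals behind the stem-loop and yield polyadenylated mRNA in differentiated cells. Since the libraries were made from poly(A)-selected RNA, a count measures the tailed transcripts plus whatever untailed RNA was carried along, and a change in level cannot be told apart from a change in the tailed share. In these bulk samples, less RNA per cell and fewer cells of a type cannot be told apart either.

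The stem-loop is shown because it sets the class apart from other mRNAs. A search of the reference transcripts (GENCODE M21, GRCm38) for a stem of 6 paired bases starting with GG around a loop of 4 bases found it in 44 of the 68 members. For most of the others the reference transcript ends at or within 2 bases of the stop codon, as for Hist1h2ai, Hist1h3h and Hist1h4k. No stem-loop could be found in those, so 44 is not a count of the genes that have one. The commonest of 8 letter sequences was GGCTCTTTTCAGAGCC, present in 24 of the 44. GGCTC stems were found in H1, H2A, H2B and H3 transcripts, and GGCCC or GGTCC stems in the H4 transcripts. The sites of 8 members whose values are described below read as follows, 5′ to 3′, with the stem-loop in capitals and up to 5 flanking bases in lower case.
Hist1h1c (H1, chr13:23739512-23739527, plus strand): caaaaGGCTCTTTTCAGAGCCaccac
Hist1h1e (H1, chr13:23621782-23621797, minus strand): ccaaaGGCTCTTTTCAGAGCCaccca
Hist1h2ac (H2A, chr13:23683477-23683492, minus strand): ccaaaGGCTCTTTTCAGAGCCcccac
Hist1h2ap (H2A, chr13:21833029-21833044, minus strand): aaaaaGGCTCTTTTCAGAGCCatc
Hist1h2be (H2B, chr13:23585531-23585546, minus strand): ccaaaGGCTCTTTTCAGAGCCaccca
Hist1h3d (H3, chr13:23576244-23576259, plus strand): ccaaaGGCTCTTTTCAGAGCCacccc
Hist1h4i (H4, chr13:22040966-22040981, minus strand): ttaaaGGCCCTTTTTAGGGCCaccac
Hist1h4n (H4, chr13:21831798-21831813, minus strand): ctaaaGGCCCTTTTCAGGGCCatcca
The reference transcript of Hist1h1c continues for 840 bases after the loop and has a polyadenylation signal in its last 50 bases, that of Hist1h4i for 330 bases with such a signal, and that of Hist1h2be for 1861 bases with such a signal. The transcript of Hist1h2ap ends 3 bases after the loop. The transcript of Hist1h2bc is spliced to a second exon and holds no stem-loop.

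The promoters also differ by histone type. RefSeq promoters (GRCm38.p6) were matched to 60 members. The CCAAT box (letters CCAAT, both strands) was found in 100% of the promoters of H1 (6 of 6), H2A (18 of 18), H2B (14 of 14) and H3 genes (10 of 10) but in 3 of 12 H4 promoters (25%), against 37.41% of 32851 mouse promoters of the same length. The letters AAACACA, a box known from H1 promoters, were found in 5 of 6 H1 promoters against 7.18% of all, and the octamer ATTTGCAT in 7 of 18 H2A and 5 of 14 H2B promoters against 1.74% of all. The letters TTTGGCGC of an E2F site were in 0 of the 60, with 0.51% of all promoters holding them. The 150 bases before the start site of an H1, an H2A and an H4 gene that were higher with H2O2 show these differences, with matches to the CCAAT box, the H1 box, the octamer and the TATA box (letters TATAAA, in 13.62% of all promoters) on either strand in capitals.
Hist1h1c (chr13:23738657-23738806, plus strand): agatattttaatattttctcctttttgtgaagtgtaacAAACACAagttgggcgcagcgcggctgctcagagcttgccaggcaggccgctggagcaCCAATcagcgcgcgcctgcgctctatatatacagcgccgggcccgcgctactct
Hist1h2ac (chr13:23683960-23684109, minus strand): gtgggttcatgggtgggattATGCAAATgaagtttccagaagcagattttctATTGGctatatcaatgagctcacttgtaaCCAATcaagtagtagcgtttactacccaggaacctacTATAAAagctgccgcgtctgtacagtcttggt
Hist1h4i (chr13:22041363-22041512, minus strand): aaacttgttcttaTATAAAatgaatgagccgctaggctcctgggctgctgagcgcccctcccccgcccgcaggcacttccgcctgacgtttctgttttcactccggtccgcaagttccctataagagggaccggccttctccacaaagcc
These matches are of letters only.

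Library totals were 19274762 to 31409066 expected counts. The 8 myotube markers summed to 9177 to 10584 CPM in gRc+H2O2, 9145 to 9573 CPM in H2O2, 12773 to 14189 CPM in gRc and 11677 to 12911 CPM in vehicle, where CPM are expected counts scaled to the normalised library size. All 8 had counts, so the cells carried the transcripts of myotubes, although 1 label calls them myoblasts. The 4 markers of myoblasts and reserve cells summed to 513 to 587 CPM in gRc+H2O2, 512 to 612 CPM in H2O2, 671 to 889.7 CPM in gRc and 662 to 916 CPM in vehicle, and 2 of the 4 (Pax7 and Myod1) were called lower in H2O2 than in vehicle. Over all tested genes 7.84% were called lower between these groups. The part of the lower marker sums with H2O2 in the results below was not tested. Vehicle replicate 3 and gRc replicate 3 deviated from their group means together (correlation 0.860 across genes). Vehicle replicate 1 had 9671 CPM of 3 fibroblast markers (Col1a1, Pdgfra and Dcn), against 1104 to 3170 CPM in the other 11 libraries. Col1a1 alone held 9551 CPM of that sum. Pdgfra had 22.9 CPM there, against 21.2 CPM in gRc replicate 2, and Dcn, at 97.1 CPM, was lower than in any other library. Whether replicates came from separate cultures is not stated, and the p-values then cover only the library-to-library spread, which may be technical. Counts of members called are given with and without these 3 libraries, and those of the related gene lists were not recomputed.

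Of the 68 genes, 64 had a count in at least 1 library, and 36 to 52 did in any single library. Together they took 0.013% to 0.027% of the counts of a library. The filter on low counts kept 26 of the 68, and only these were tested. The filter asks for at least 0.371 CPM in 3 libraries. Of the 26, 6 passed only through the H2O2-treated groups (Hist1h1a, Hist1h2ac, Hist1h2ae, Hist1h2ah, Hist2h2bb and Hist2h3b) and 2 only through the other groups (Hist2h2ac and Hist1h2br). Genes that passed only through some groups were selected in part for a difference, although Hist1h2ae and Hist2h2ac, with log2 changes of −0.23 and 0.09 between H2O2 and vehicle, show that they need not differ. Counts over the tested genes therefore describe those genes and not the class. Of the 42 untested genes, 4 had no count in any library, namely Hist1h2aa, Hist1h2ba, Hist2h2ab and Hist2h3c1, and 34 stayed under 20 counts in every library. The remaining 4 reached at most 118 counts. The 42 summed to 3.28, 2.97 and 8.21 CPM in gRc+H2O2, 3.38, 2.67 and 3.48 CPM in H2O2, 1.74, 2.07 and 6.49 CPM in gRc and 4.84, 2.04 and 6.06 CPM in vehicle, with overlapping groups.

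Levels were compared between genes in TPM, which also divides by the length of the transcript. Hist1h1c, which encodes the replication-linked but widely expressed linker histone H1.2, was the most abundant member, with a mean of 127 TPM (range 65.5 to 203) over the 12 libraries. It held 30.4% to 71.0% of the counts of the class. The H2B gene Hist1h2bc followed with 74.1 TPM (range 14.7 to 156), then the H2A genes Hist1h2ap with 56.2 TPM (range 0 to 316), Hist2h2aa1 with 42.4 TPM (range 21.4 to 62.6) and Hist1h2al with 30.5 TPM (range 13.8 to 115). Without gRc replicate 3 the mean of Hist1h2ap was 32.5 TPM, below that of Hist2h2aa1. Each gene in this order overlapped its neighbour in range, whereas every library of Hist1h1c lay above every library of Hist2h2aa1. Hist1h2al is annotated as a processed pseudogene and lies outside the cluster, at chr13:51202727-51203065. The most abundant H4 gene was Hist1h4i with 12.5 TPM (range 5.74 to 18.8), and the most abundant H3 gene was Hist2h3c2 with 9.05 TPM (range 4.31 to 15.6). Hist3h2a, the sole tested member of Hist3, had 6.77 TPM (range 4.38 to 13.03). Hist4h4, the sole member of Hist4, had 0 to 3 counts in each library, and the other members of Hist3 were not tested.

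**Figure D1:**
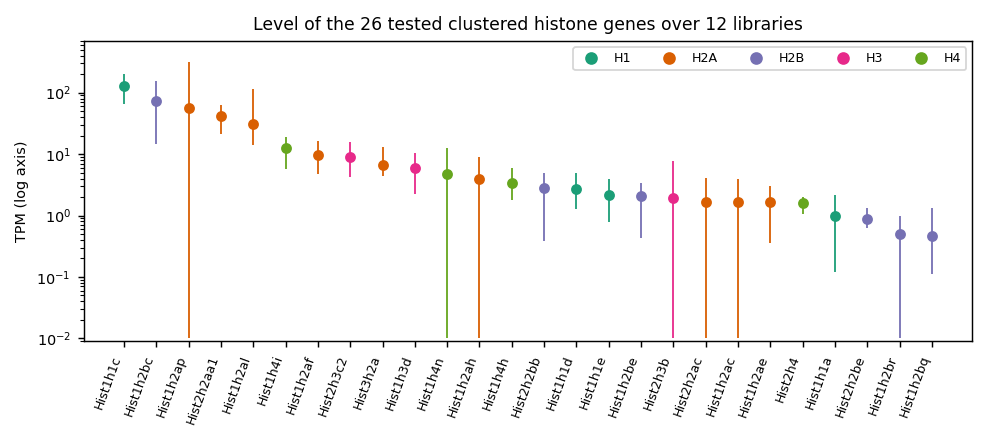
Mean TPM over the 12 libraries (points) and the lowest to the highest library (lines) of the 26 tested clustered histone genes, coloured by histone type, on a log axis that ends at 0.01 TPM, where values of 0 are drawn. Hist1h1c had the highest mean and Hist1h2bq the lowest.

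Some members cannot be separated by sequence. In 26 of the 68 genes at least 50% of all 100-base windows occur in another gene. Genes were grouped where at least 1 of a pair shared that much with the other, which put 30 genes into 7 groups. Some members share less of their own sequence, such as Hist1h3d with 20.4% of its windows. In gRc+H2O2 replicate 3 the H2A gene Hist1h2ao held 96.3 expected counts and its near-identical copy Hist1h2ap held 0, whereas Hist1h2ap held the counts in gRc+H2O2 replicates 1 and 2. After the 11 genes of that group were summed, the group had 7.47, 6.96 and 7.19 CPM in gRc+H2O2, 5.26, 7.26 and 5.35 CPM in H2O2, 6.77, 7.90 and 51.0 CPM in gRc and 5.17, 7.95 and 34.6 CPM in vehicle. The 2 high values stood in gRc replicate 3 and vehicle replicate 3, and the other 10 libraries lay between 5.17 and 7.95 CPM. Values of single genes in these groups are therefore uncertain, and summed values are given beside several of them. Some members also share windows with genes outside the class, such as Hist3h2a with Trim17 and Hist2h2aa1 with Gm20634. No sum includes those genes.

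The first comparison asked what H2O2 alone did to the class. The summed level of the 68 genes was 288, 231 and 257 CPM in H2O2 myotubes, against 198, 124 and 192 CPM in vehicle myotubes, and the groups did not overlap. The means were 258 ± 28.7 CPM in H2O2 and 171 ± 41.2 CPM in vehicle (SD, n = 3 each), which is a ratio of means of 1.51. The log2 ratios given for sums are differences between the groups' mean log2 sums, so that 1 high library weighs less than in the mean, and for the class this log2 ratio was 0.62. Hist1h1c carried the difference. Without it, the remaining 67 genes summed to 83.4, 82.7 and 75.6 CPM in H2O2 and 76.4, 62.6 and 130.3 CPM in vehicle, and the log2 ratio was −0.09. In summed TPM, where short H2A transcripts weigh more, the log2 ratio of the whole class was 0.18 and the groups overlapped. Vehicle replicate 3 held the highest of the 6 sums without Hist1h1c.

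By histone type, in CPM, H1 and H4 were separated between H2O2 and vehicle and H2A, H2B and H3 were not. H1 genes summed to 209, 151 and 184 CPM in H2O2 and 124, 62.8 and 62.9 CPM in vehicle (log2 ratio 1.19), and without Hist1h1c to 4.72, 2.55 and 3.35 CPM in H2O2 and 2.18, 1.35 and 0.927 CPM in vehicle (log2 ratio 1.29). H4 genes summed to 12.3, 10.8 and 8.97 CPM in H2O2 and 6.32, 5.94 and 4.63 CPM in vehicle (log2 ratio 0.92). These groups did not overlap. H2A genes summed to 36.4, 30.5 and 36.2 CPM in H2O2 and 52.5, 28.7 and 52.1 CPM in vehicle (log2 ratio −0.32), H2B genes to 22.3, 30.6 and 19.9 CPM in H2O2 and 8.97, 20.2 and 62.8 CPM in vehicle (log2 ratio 0.09, but a ratio of means of 0.79, so the 2 measures differ in direction), and H3 genes to 7.64, 8.24 and 7.15 CPM in H2O2 and 6.46, 6.37 and 9.86 CPM in vehicle (log2 ratio 0.05). Vehicle replicate 3 was the highest of the 6 libraries for H2B and H3, and vehicle replicates 1 and 3 for H2A. In summed TPM the H3 genes did separate, with 24.8, 23.2 and 22.0 TPM in H2O2 and 14.98, 16 and 20.05 TPM in vehicle (log2 ratio 0.47). The sums are descriptions and were not tested.

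**Figure D2:**
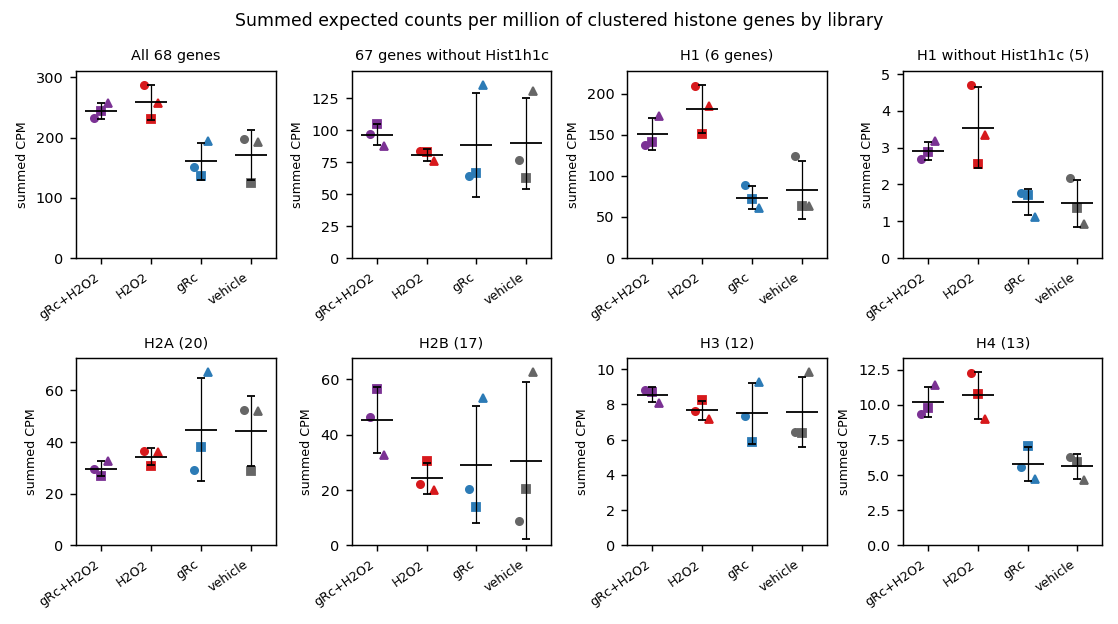
Summed CPM of all 68 clustered histone genes, of 67 without Hist1h1c, and of each histone type in every library (circle, square and triangle for replicates 1, 2 and 3), with the group mean (line) and SD (bar, n = 3). The H1 and H4 sums of both H2O2-treated groups lay above those of gRc and vehicle, and the triangles of gRc and vehicle stood high for H2A and H2B, as did the vehicle circle for H2A.

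For single genes, edgeR called 7 of the 26 tested members higher in H2O2 than in vehicle and 0 lower, against 7.81% of all 14838 tested genes called higher and 7.84% called lower. At an unadjusted p under 0.05, 11 were past the threshold and all 11 were above 0, against 29.8% of all genes in either direction. DESeq2 called 10 higher and 1 lower (Hist1h2bk, which edgeR did not test). It took all 64 members with a count, gave no adjusted p to 23 of them, and called 1493 genes higher and 1488 lower in all. The groups did not overlap for 13 tested members, all higher in H2O2, against 15.9% of all genes higher and 15.2% lower without overlap. The log2 fold change was above 0 for 17 of the 26, against 45.8% of all genes. The median log2 fold change was 0.84 over the 26, against −0.06 over all tested genes. The 7 were Hist1h1a, Hist1h1c and Hist1h1e of H1, Hist1h2ac of H2A, Hist1h3d of H3, and Hist1h4i and Hist1h4n of H4, all from the Hist1 cluster. The count depended on the libraries, since 1, 3 and 1 members were called higher without H2O2 replicates 1, 2 and 3, and 11, 1 and 2 without vehicle replicates 1, 2 and 3. It was 6 when the 3 libraries that stood apart were all left out, which leaves 1 vehicle library that is assumed to vary like the other groups. Of these 6, 4 are among the 7, and Hist1h2ah and Hist2h2bb were added. It was 1 in a fit of the 6 libraries alone. Hist1h2ac was called in each of these fits, but it passed the filter only through the H2O2-treated groups (4 libraries over the minimum there and 0 in the others), a selection that favours such a call. Over the 18 genes that pass the filter through the H2O2-treated groups and through the others alike, 5 were called higher and the median log2 fold change was 0.46. Hist1h1a and Hist1h2ac, 2 of the 7, passed only through the H2O2-treated groups.

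Linker histones bind the DNA between nucleosomes and compact chromatin. Hist1h1c (H1.2) had 205, 148 and 181 CPM in H2O2 myotubes, against 122, 61.4 and 62.0 CPM in vehicle myotubes, with means of 178 ± 28.4 CPM in H2O2 and 81.7 ± 34.7 CPM in vehicle (SD, n = 3 each). Every H2O2 library lay above every vehicle library, and vehicle replicate 1 was the highest of its group. Its log2 fold change was 1.12 (SE 0.27, adjusted p = 0.0174). Hist1h1e (H1.4) had 1.59, 0.985 and 0.830 CPM in H2O2 and 0.723, 0.416 and 0.285 CPM in vehicle, with a log2 change of 1.28 (SE 0.38, adjusted p = 0.0453). Hist1h1a (H1.1) had 0.652, 0.373 and 0.703 CPM in H2O2 and 0.166, 0.0691 and 0.0356 CPM in vehicle, which is 42 fragments in 3 libraries against 6 and a log2 change of 2.73 (SE 0.66, adjusted p = 0.018). Its groups did not overlap, but its counts were low. Hist1h1d (H1.3) had 2.01, 1.09 and 1.78 CPM in H2O2 and 1.07, 0.694 and 0.463 CPM in vehicle, a log2 change of 1.15 (SE 0.38, adjusted p = 0.0644) that did not pass. Hist1h1b (H1.5) had at most 9 counts in a library, and the testis variant Hist1h1t at most 2.

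Among H2A genes Hist1h2ac moved alone past the threshold. It had 0.615, 0.632 and 0.781 CPM in H2O2 myotubes, against 0, 0.0332 and 0.0403 CPM in vehicle myotubes, and no vehicle library held more than 1 fragment of it. Over the 3 libraries these were 51 fragments against 2, a ratio of 25.5 with an exact 95% interval of 6.70 to 216 that covers counting error only. The fitted log2 fold change was 4.46 (SE 0.55, adjusted p = 0.000554). The most abundant H2A genes did not pass. Hist2h2aa1 had 12.5, 11.9 and 16.4 CPM in H2O2 and 10.4, 11.1 and 5.46 CPM in vehicle (log2 fold change 0.60, SE 0.40, adjusted p = 0.351). Its groups did not overlap, and summed with its near-identical copy Hist2h2aa2 they were 12.5, 12.3 and 16.4 CPM in H2O2 and 10.4, 11.1 and 8.52 CPM in vehicle. Hist1h2ap had 2.33, 4.18 and 2.36 CPM in H2O2 and 0, 5.80 and 33.1 CPM in vehicle, a log2 change of −2.13 (SE 1.57, adjusted p = 0.402) that rests on vehicle replicate 3. Hist1h2al had 4.77, 1.91 and 4.19 CPM in H2O2 and 17.04, 2.19 and 1.99 CPM in vehicle, and Hist3h2a had 12.4, 8.19 and 9.04 CPM in H2O2 and 18.8, 6.88 and 6.93 CPM in vehicle. Both were highest in vehicle replicate 1, the library with the high Col1a1 value, and neither passed (adjusted p = 0.427 and 0.858). The other 4 tested H2A genes, Hist1h2ae, Hist1h2af, Hist1h2ah and Hist2h2ac, had log2 changes from −0.23 to 2.50, and none passed (adjusted p from 0.247 to 0.971).

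**Figure D3:**
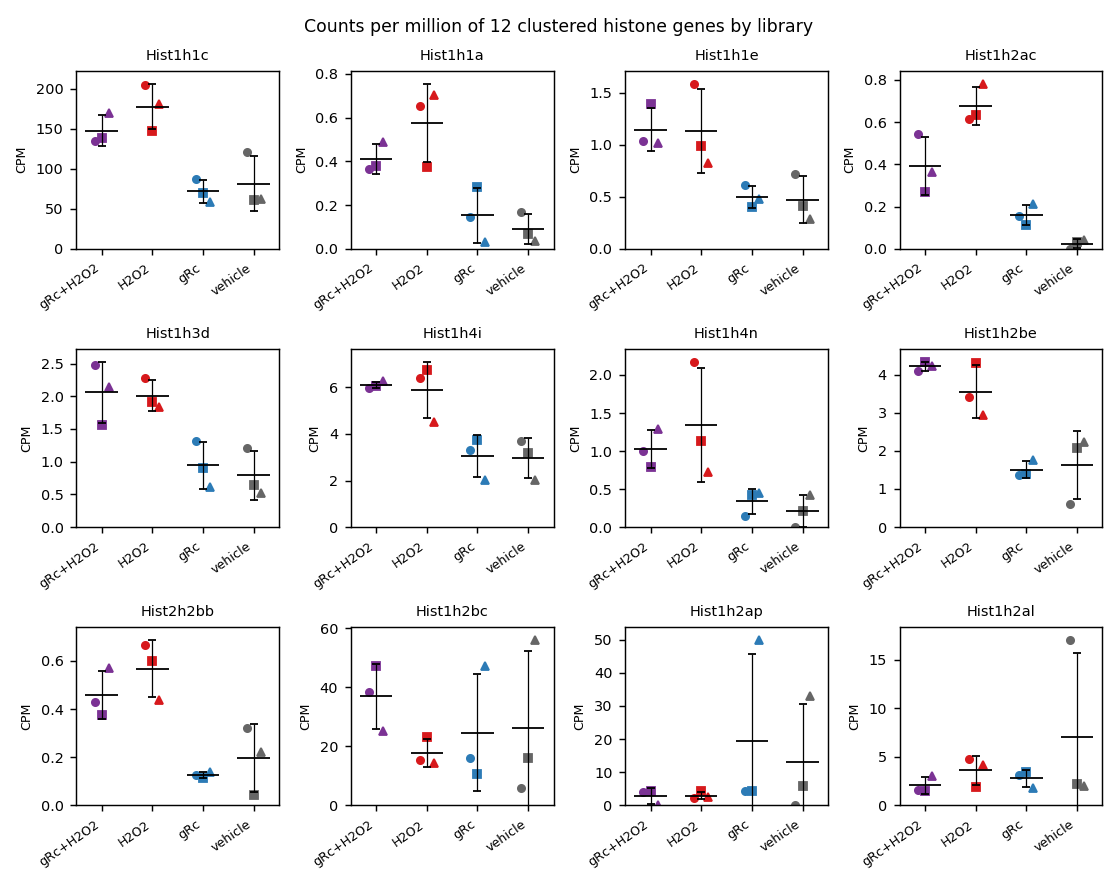
CPM of 12 members in every library (circle, square and triangle for replicates 1, 2 and 3), with the group mean (line) and SD (bar, n = 3; axes start at 0). For the first 9 genes both H2O2-treated groups lay above gRc and vehicle, while Hist1h2bc and Hist1h2ap were high in gRc replicate 3 and vehicle replicate 3 and Hist1h2al in vehicle replicate 1.

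No tested H2B gene passed the adjusted threshold in this comparison, with 2 at an unadjusted p under 0.05. These were Hist2h2bb, with 0.667, 0.599 and 0.438 CPM in H2O2 and 0.321, 0.0449 and 0.222 CPM in vehicle (log2 fold change 1.63, SE 0.52, adjusted p = 0.0594), and Hist1h2be, with 3.41, 4.31 and 2.94 CPM in H2O2 and 0.610, 2.07 and 2.23 CPM in vehicle (log2 change 1.09, SE 0.37, adjusted p = 0.0729). For both genes every H2O2 library lay above every vehicle library. DESeq2 called Hist1h2be and not Hist2h2bb. Hist1h2bc, the most abundant H2B gene, had 15.5, 23.0 and 14.3 CPM in H2O2 and 6.04, 16.2 and 56.0 CPM in vehicle (log2 fold change −0.57, SE 0.71, adjusted p = 0.642), and its 3 vehicle libraries spanned both ends of the range. Hist2h2be, known in mouse as the H2B variant of olfactory neurons, had 1.35, 1.42 and 1.24 CPM in H2O2 and 1.39, 0.968 and 1.78 CPM in vehicle (log2 fold change −0.04, SE 0.31, adjusted p = 0.948).

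Among H3 genes Hist1h3d had 2.28, 1.92 and 1.84 CPM in H2O2 myotubes, against 1.22, 0.645 and 0.516 CPM in vehicle myotubes, a log2 change of 1.37 (SE 0.38, adjusted p = 0.0323) with no overlap. Summed with Hist1h3b, Hist1h3h and Hist1h3i, which share part of its sequence, the log2 fold change was 1.27 (SE 0.37, adjusted p = 0.0389). Hist2h3c2, the most abundant H3 gene, went the other way, with 2.62, 4.88 and 3.26 CPM in H2O2 and 4.46, 4.96 and 8.68 CPM in vehicle (log2 fold change −0.74, SE 0.37, adjusted p = 0.205). Hist2h3b was at 0 in all vehicle libraries and had 1.29, 0.341 and 0.708 CPM in H2O2, which is at least 18.3-fold higher when 3 counts over the vehicle group are taken as the floor (adjusted p = 0.0769). Hist2h3b and Hist2h3c2 are near-identical in part. Summed with Hist2h3c1 they had 3.91, 5.22 and 3.97 CPM in H2O2 and 4.46, 4.96 and 8.68 CPM in vehicle, with overlapping groups.

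The 4 tested H4 genes were all above 0, and 2 passed. Hist1h4i had 6.40, 6.74 and 4.51 CPM in H2O2 myotubes, against 3.71, 3.16 and 2.02 CPM in vehicle myotubes, with means of 5.88 ± 1.203 CPM in H2O2 and 2.97 ± 0.865 CPM in vehicle (SD, n = 3 each) and a log2 change of 0.99 (SE 0.28, adjusted p = 0.0372). Hist1h4n had 2.17, 1.13 and 0.719 CPM in H2O2 and 0, 0.211 and 0.428 CPM in vehicle (log2 change 2.52, SE 0.72, adjusted p = 0.0369). Summed with its copy Hist1h4m the log2 fold change was 1.95 (SE 0.47, adjusted p = 0.0183). Hist1h4h had 1.22, 0.765 and 0.616 CPM in H2O2 and 0.700, 0.315 and 0.399 CPM in vehicle (log2 change 0.90, SE 0.42, adjusted p = 0.179), and Hist2h4 of the Hist2 cluster had 1.82, 1.63 and 1.94 CPM in H2O2 and 1.11, 1.80 and 1.35 CPM in vehicle (log2 change 0.33, SE 0.29, adjusted p = 0.49). The H2O2 and vehicle libraries of the last 2 genes overlapped.

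The second comparison asked what H2O2 did to cells pretreated with gRc. It shares no library with the first, but all 12 libraries went into 1 fit with 1 filter. Same-numbered gRc and vehicle libraries also deviated together (correlations 0.460, 0.271 and 0.860), so the 2 comparisons are not fully independent. The class summed to 232, 243 and 258 CPM in gRc+H2O2 and 151, 136 and 195 CPM in gRc, without overlap, with means of 244 ± 12.8 CPM in gRc+H2O2 and 161 ± 30.7 CPM in gRc (SD, n = 3 each) and a log2 ratio of 0.62. Without Hist1h1c the sums were 97.0, 105 and 87.9 CPM in gRc+H2O2 and 63.9, 66.4 and 136 CPM in gRc, with overlap, and the ratio was 0.21. H1 genes summed to 138, 142 and 173 CPM in gRc+H2O2 and 89.0, 71.2 and 60.4 CPM in gRc (log2 ratio 1.05) and H4 genes to 9.37, 9.78 and 11.4 CPM in gRc+H2O2 and 5.57, 7.06 and 4.69 CPM in gRc (log2 ratio 0.83), both without overlap. H2A (log2 ratio −0.51), H2B (log2 ratio 0.84) and H3 (log2 ratio 0.21) overlapped.

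edgeR called 4 of the 26 tested members higher in gRc+H2O2 than in gRc and 0 lower, against 7.57% of all genes called higher and 8.15% called lower. At an unadjusted p under 0.05, 10 passed, all above 0, against 28.2% of all genes in either direction. DESeq2 called 8 of 64 members with a count higher and 0 lower, and gave no adjusted p to 23. Hist1h3i, among the 8, was not tested with edgeR. Over all genes DESeq2 called 1480 higher and 1436 lower. For 12 tested members the groups did not overlap, all higher in gRc+H2O2, against 19.2% of all genes higher and 19.5% lower without overlap. The log2 fold change was above 0 for 19 of the 26, against 47% of all genes. The median log2 fold change was 0.75, against −0.04 over all genes. The 4 were Hist1h2be, Hist1h1c, Hist1h4i and Hist2h2bb. Of these Hist1h1c and Hist1h4i also passed between H2O2 and vehicle, which is 50.0% of the 4 and 28.6% of the 7. The count was 0, 1 and 0 without gRc+H2O2 replicates 1, 2 and 3, and 1, 1 and 2 without gRc replicates 1, 2 and 3. None of the 4 was called in any fit without a gRc+H2O2 library, since the 1 found without gRc+H2O2 replicate 2 was Hist1h3b. Without single gRc libraries Hist1h1c was called without replicate 1, Hist1h4i without replicate 2, and Hist1h2be and Hist1h2bq without replicate 3. The count was 13 when the 3 libraries that stood apart were all left out, which leaves 2 gRc libraries, and the 13 held all 4 and 9 others. Fits without some libraries filter the genes anew, and Hist1h3b, Hist1h2ad, Hist1h3i and Hist1h4c were not among the 26. The 13 is therefore not a count out of the 26, and the share of all genes called in that fit is not given here. Over the 18 genes that pass the filter through either kind of group, 3 were called higher and the median log2 fold change was 0.64, and Hist2h2bb passed the filter only through the H2O2-treated groups.

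Hist1h1c had 135, 139 and 169.6 CPM in gRc+H2O2 and 87.2, 69.4 and 59.2 CPM in gRc, a log2 change of 1.04 (SE 0.27, adjusted p = 0.0245). Hist1h2be had 4.10, 4.32 and 4.22 CPM in gRc+H2O2 and 1.37, 1.38 and 1.76 CPM in gRc, with means of 4.22 ± 0.112 CPM in gRc+H2O2 and 1.503 ± 0.223 CPM in gRc (SD, n = 3 each) and a log2 change of 1.48 (SE 0.37, adjusted p = 0.0215). Hist1h4i had 5.99, 6.06 and 6.26 CPM in gRc+H2O2 and 3.33, 3.75 and 2.02 CPM in gRc (log2 change 1.01, SE 0.28, adjusted p = 0.0328). In all 3 genes every gRc+H2O2 library lay above every gRc library. Hist2h2bb had 0.430, 0.374 and 0.569 CPM in gRc+H2O2 and 0.128, 0.112 and 0.140 CPM in gRc (log2 change 1.76, SE 0.54, adjusted p = 0.0473). Members that passed with H2O2 alone but not here were Hist1h1e (log2 change 1.19, SE 0.37, adjusted p = 0.0534), Hist1h3d (log2 change 1.12, SE 0.37, adjusted p = 0.0641), Hist1h2ac (log2 change 1.24, SE 0.42, adjusted p = 0.0714), Hist1h1a (log2 change 1.45, SE 0.60, adjusted p = 0.139) and Hist1h4n (log2 change 1.60, SE 0.68, adjusted p = 0.152). All 5 were above 0 and without overlap. Summed with Hist1h3b, Hist1h3h and Hist1h3i, Hist1h3d did pass (log2 change 1.26, SE 0.36, adjusted p = 0.0367). Hist1h4n summed with Hist1h4m passed as well (log2 change 1.60, SE 0.47, adjusted p = 0.0424). Hist1h2bq, an H2B gene with near-identical copies, had 1.71, 1.25 and 0.678 CPM in gRc+H2O2 and 0.240, 0.192 and 0.624 CPM in gRc (log2 change 1.74, SE 0.58, adjusted p = 0.0686). Summed with its copies Hist1h2bk and Hist1h2br, the log2 change was 0.93 (SE 0.54, adjusted p = 0.291).

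**Figure D4:**
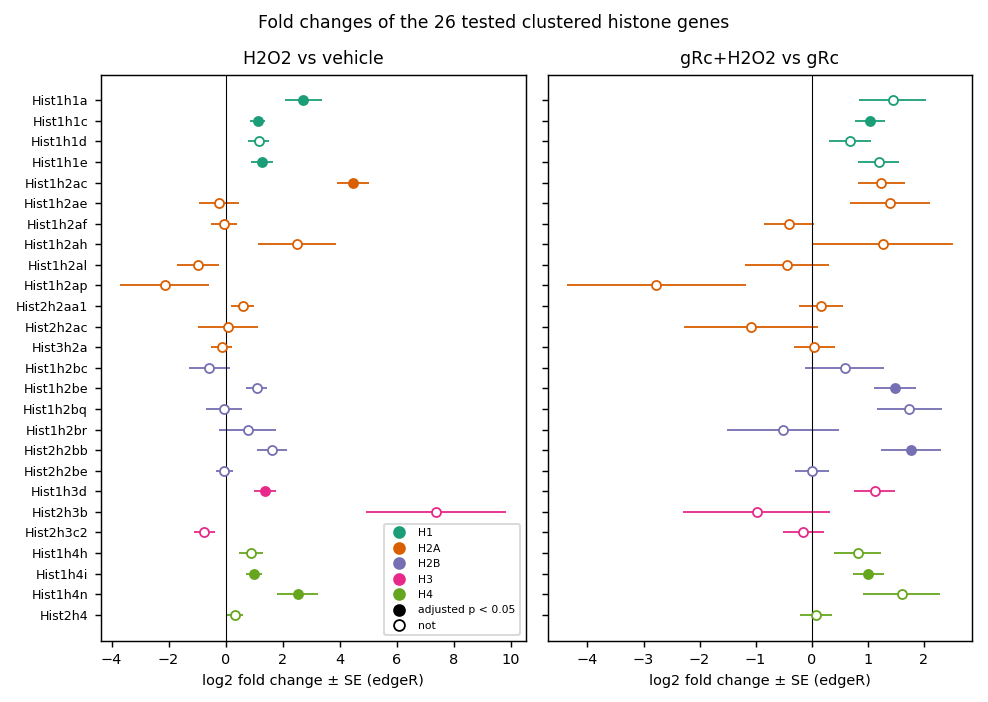
Log2 fold change with SE (bars) of the 26 tested members in H2O2 against vehicle (left) and gRc+H2O2 against gRc (right), ordered and coloured by histone type. Filled points passed the adjusted threshold of 0.05, 7 on the left and 4 on the right, and all H1 and H4 genes lay above 0 in both.

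Whether gRc changed the class was asked with and without H2O2. These 2 comparisons use the same 12 libraries as the first 2, so their values are not independent of those above. Between gRc+H2O2 and H2O2 edgeR called 0 of the 26, as it called 0 of all 14838 genes (percent called 0), with 1 member at an unadjusted p under 0.05 against 0.822% of all genes, and DESeq2 called 0 members. That member was Hist1h2bq, with 1.71, 1.25 and 0.678 CPM in gRc+H2O2 and 0.664, 0.142 and 0.441 CPM in H2O2 (log2 fold change 1.58, SE 0.59, adjusted p = 0.922). Summed with its copies Hist1h2bk and Hist1h2br, the values were 1.85, 2.30 and 1.07 CPM in gRc+H2O2 and 1.10, 1.13 and 0.760 CPM in H2O2, which overlapped. Hist1h2ac had 0.543, 0.270 and 0.361 CPM in gRc+H2O2 and 0.615, 0.632 and 0.781 CPM in H2O2 (log2 fold change −0.76, SE 0.37, adjusted p = 0.922), without overlap. Hist1h2bc had 38.6, 47.2 and 25.3 CPM in gRc+H2O2 and 15.5, 23.0 and 14.3 CPM in H2O2 (log2 change 1.07, SE 0.71, adjusted p = 0.922), also without overlap, which set the H2B sum apart at 46.6, 56.5 and 32.7 CPM in gRc+H2O2 and 22.3, 30.6 and 19.9 CPM in H2O2. These 3 were the tested members without overlap, 2 higher and 1 lower, against 7.66% and 7.62% of all genes. Hist1h1c had a log2 change of −0.27 (SE 0.27, adjusted p = 0.922), and the summed class a log2 ratio of −0.08. The smallest p of the other types belonged to Hist1h1d (log2 change −0.58, SE 0.37, adjusted p = 0.922), Hist2h3c2 (log2 change 0.46, SE 0.37, adjusted p = 0.922) and Hist2h4 (log2 change −0.21, SE 0.29, adjusted p = 0.922).

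Between gRc and vehicle edgeR likewise called 0 of the 26 and 0 of all genes, with 2 members at an unadjusted p under 0.05 against 0.499% of all genes, and DESeq2 called 0 members. These 2, Hist1h2ac and Hist2h3b, passed the filter only through the H2O2-treated groups, which the share over all genes does not allow for. Hist1h2ac had 0.158, 0.112 and 0.211 CPM in gRc and 0, 0.0332 and 0.0403 CPM in vehicle, without overlap, which is 14 fragments against 2 (ratio 6.28, exact 95% interval 1.44 to 56.9) and a log2 change of 2.46 (SE 0.63, adjusted p = 1). It was the 1 tested member without overlap, against 0.89% of all genes higher and 0.748% lower, and 14 of the 26 were above 0, against 50.3% of all genes. Hist2h3b, the other, had 1.40, 0 and 0.0578 CPM in gRc and was at 0 in vehicle. The value rests on gRc replicate 1. Summed with its copies Hist2h3c1 and Hist2h3c2, its log2 change was −0.01 (SE 0.31). The summed class had a log2 ratio of −0.08, and Hist1h1c had 87.2, 69.4 and 59.2 CPM in gRc and 122, 61.4 and 62.0 CPM in vehicle. The smallest p of the other types belonged to Hist1h1a (log2 change 0.81, SE 0.75, adjusted p = 1), Hist2h2bb (log2 change −0.45, SE 0.60, adjusted p = 1) and Hist1h4n (log2 change 0.54, SE 0.77, adjusted p = 1). Tested directly, the response to H2O2 with gRc minus that without it differed for 0 of the 26 members after adjustment, with DESeq2 at 0 too. At an unadjusted p under 0.05 it differed for 2, against 0.586% of all genes, namely Hist1h2ac (log2 change −3.22, SE 0.73, adjusted p = 1) and Hist2h3b, both below 0. Summed with its copies Hist2h3c1 and Hist2h3c2, Hist2h3b had a difference of 0.27 (SE 0.43) on the log2 scale. Both members were tested only because of their values in the H2O2-treated groups, which the share over all genes does not allow for. Without the 3 libraries that stood apart, 0 members were called in gRc+H2O2 against H2O2, in gRc against vehicle and in the difference of responses alike.

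By cluster, Hist1 summed to 254, 201 and 223 CPM in H2O2 and 161, 97.7 and 165 CPM in vehicle (log2 ratio 0.71) and to 204, 215 and 227 CPM in gRc+H2O2 and 124, 101 and 169 CPM in gRc (log2 ratio 0.74), without overlap in either. Without Hist1h1c, a set chosen after its values were seen, Hist1 summed to 49.8, 53.1 and 42.0 CPM in H2O2 and 38.85, 36.2 and 102.7 CPM in vehicle (log2 ratio −0.13) and to 68.9, 76.2 and 57.7 CPM in gRc+H2O2 and 37.0, 31.9 and 109.7 CPM in gRc (log2 ratio 0.41), with overlap in both. Hist2 summed to 21.1, 21.4 and 24.4 CPM in H2O2 and 18.8, 19.4 and 20.6 CPM in vehicle (log2 ratio 0.19), without overlap, and to 19.4, 20.4 and 22.4 CPM in gRc+H2O2 and 18.0, 25.3 and 20.4 CPM in gRc (log2 ratio −0.02), with overlap. Hist3, which was almost all Hist3h2a, summed to 12.4, 8.19 and 9.16 CPM in H2O2 and 18.8, 6.92 and 6.96 CPM in vehicle (log2 ratio 0.02, but a ratio of means of 0.91), and the 3 vehicle values enclosed those of H2O2. No difference between clusters was tested.

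The genes were also split by the length of the gene model in the files, as a rough guide to how much of a transcript lies outside the coding sequence. For 4 of the 15 long models described here (Hist1h2bc, Hist1h2bq, Hist1h2br and Hist2h2be) no stem-loop was found in a reference transcript, and Hist1h2bc alone held up to 29.1% of the counts of the class. The models can be shorter than the reference transcripts above, as for Hist1h2ac and Hist1h3d. In 15 genes the model held at least 300 bases beyond the coding sequence, in 50 fewer, and 3 were not coding. The 15 long models took 66.1% to 88.9% of the counts of the class. They summed to 249.7, 199.8 and 219.6 CPM in H2O2 and 158, 98.3 and 143 CPM in vehicle (log2 ratio 0.77), without overlap. Without Hist1h1c, again chosen after its values were seen, the other 14 summed to 45.0, 51.8 and 38.5 CPM in H2O2 and 36.6, 36.8 and 80.6 CPM in vehicle (log2 ratio −0.09), with overlap. The 50 short models summed to 33.5, 29.1 and 32.9 CPM in H2O2 and 22.7, 23.5 and 47.6 CPM in vehicle (log2 ratio 0.11), with overlap. Without H2A genes, 33 short models summed to 14.3, 8.596 and 9.88 CPM in H2O2 and 6.04, 3.90 and 4.44 CPM in vehicle (log2 ratio 1.18), and to 9.23, 8.16 and 11.3 CPM in gRc+H2O2 and 6.35, 4.57 and 4.41 CPM in gRc (log2 ratio 0.91), without overlap in either. That set without H2A was chosen after its values were seen. Of the 7 members called with H2O2 alone, Hist1h1c and Hist1h4i have long models and the other 5 short ones.

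Of 33 S phase and replication genes tested, 8 fell in H2O2 against vehicle and 1 rose, beside 7.84% of all genes called lower and 7.81% called higher. The median log2 fold change of the 33 was −0.45, with 6 genes above 0, and the list was not tested as a whole. Ccne1, the cyclin E1 that activates CDK2 at the start of S phase, had 3.45, 3.02 and 2.98 CPM in H2O2 and 11.2, 7.53 and 10.0 CPM in vehicle (log2 change −1.60, SE 0.18, adjusted p = 0.000333). Tk1, thymidine kinase, had a log2 change of −1.33 (SE 0.19, adjusted p = 0.00151), Uhrf1, which maintains DNA methylation behind the replication fork, −1.08 (SE 0.18, adjusted p = 0.00259), and the replicative helicase subunit Mcm7, the gene that rose, 0.95 (SE 0.16, adjusted p = 0.00352). In gRc+H2O2 against gRc 9 fell and 1 rose, Mcm7 again, with a median of −0.52, beside 8.15% of all genes called lower and 7.57% called higher. All 14 genes of cycling cells were below 0 with H2O2 alone, with a median of −0.63. Of these, 4 fell past the threshold (Ccna2, Kif11, Ccnb2 and Plk1), beside 7.84% of all genes. Their sum was 336 to 359 CPM in H2O2 and 462 to 519 CPM in vehicle.

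The factors that make and remove these mRNAs were read next. Of 20 genes for the processing of histone pre-mRNA, 1 rose with H2O2 alone, beside 7.81% of all genes. It was Cpsf2, which encodes CPSF100 of the cleavage complex (log2 change 0.46, SE 0.12, adjusted p = 0.0233). Slbp had 26.9, 28.5 and 34.9 CPM in H2O2 and 28.7, 27.8 and 18.3 CPM in vehicle (log2 change 0.27, SE 0.23, adjusted p = 0.462). Of 13 genes for histone mRNA decay 1 rose, beside 7.81% of all genes. That gene was Tut4, a terminal uridylyltransferase (log2 change 0.65, SE 0.13, adjusted p = 0.00611). Tut4 rose in gRc+H2O2 against gRc as well (log2 change 0.54, SE 0.12, adjusted p = 0.0148). Of 16 genes for transcription of the clusters, Nfyb, a subunit of the CCAAT-binding factor NF-Y, rose (log2 change 0.98, SE 0.25, adjusted p = 0.0228) and Ccne1, Ccne2 and Cdk2 fell. Over all genes 7.81% were called higher and 7.84% lower. Npat had 19.9, 33.9 and 26.05 CPM in H2O2 and 8.48, 22.7 and 26.1 CPM in vehicle (log2 change 0.48, SE 0.37, adjusted p = 0.424). Of 18 histone chaperones 4 fell, beside 7.84% of all genes. Among the 4 were Chaf1b, a subunit of the assembly factor CAF-1 (log2 change −1.10, SE 0.19, adjusted p = 0.00392), and Asf1b (log2 change −1.40, SE 0.33, adjusted p = 0.016).

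Histone genes outside the clusters were measured for comparison. Many such genes, though not all, make polyadenylated mRNA that is not tied to S phase. Of 11, H3f3b and H2afj rose and Cenpa fell in H2O2 against vehicle, beside 7.81% of all genes called higher and 7.84% called lower. H3f3b, which encodes the replacement histone H3.3, had 564, 589 and 566 CPM in H2O2 and 327, 336 and 316 CPM in vehicle (log2 change 0.81, SE 0.14, adjusted p = 0.00352) and in gRc+H2O2 against gRc the log2 fold change was 0.80 (SE 0.14, adjusted p = 0.00372). Its level in either group exceeded the sum of the 68 clustered genes. H2afj had 44.3, 50.0 and 61.4 CPM in H2O2 and 26.1, 31.0 and 24.2 CPM in vehicle (log2 change 0.94, SE 0.22, adjusted p = 0.0153), and Cenpa, the histone of centromeres, fell by 0.82 (SE 0.15, adjusted p = 0.00547) on the log2 scale.

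**Figure D5:**
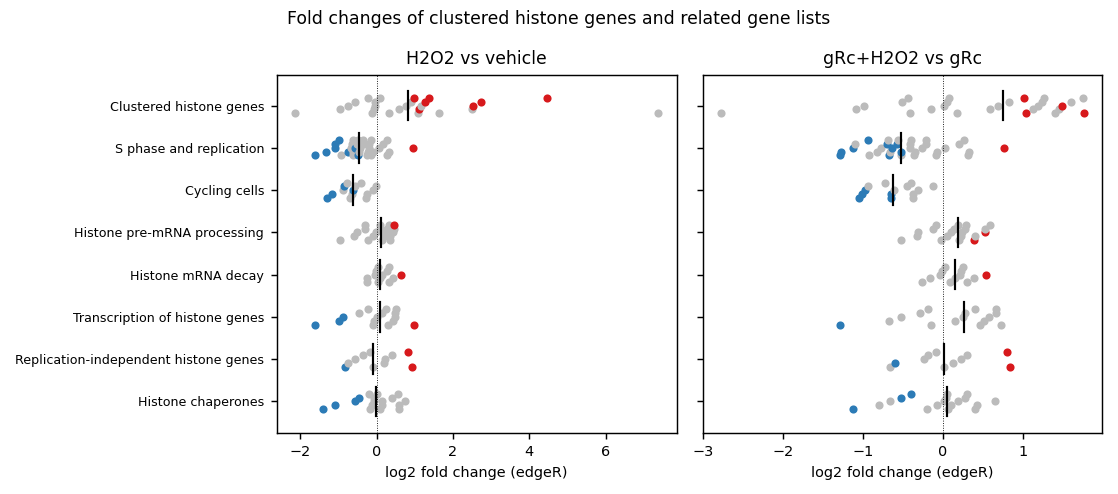
Log2 fold changes of the tested clustered histone genes and of 7 related gene lists in H2O2 against vehicle (left) and gRc+H2O2 against gRc (right). Each point is a gene, red where it rose and blue where it fell past an adjusted p of 0.05, grey otherwise, and the black bar is the median, which was 0.84 for the clustered genes and −0.45 for the S phase genes on the left.

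RNAs that lack long poly(A) tails were read beside the class, as a measure of untailed RNA in the libraries. Of 11 listed, 4 were tested. The mitochondrial ribosomal RNAs mt-Rnr1 and mt-Rnr2, which carry at most short tails, together had 16094 to 27251 CPM in gRc+H2O2, 7517 to 19423 CPM in H2O2, 857 to 2883 CPM in gRc and 456 to 2105 CPM in vehicle. Both rose with H2O2 (mt-Rnr2 log2 change 2.97, SE 0.60, adjusted p = 0.00772). The other 9, which are nuclear, summed to 5.70 to 9.58 CPM in gRc+H2O2, 5.31 to 7.81 CPM in H2O2, 2.98 to 7.14 CPM in gRc and 3.10 to 7.36 CPM in vehicle, and 3 of them were at 0 in all libraries. Their part in the higher histone values was not tested. With all mitochondrial genes left out of the fit, 7 and 4 members were called higher in the first and second comparison, as with them. That fit changes the scaling of the libraries and not the histone counts, so it cannot decide whether untailed RNA raised them.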

How the data were processed

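Poly(A)-selected RNA of 12 C2C12 libraries was sequenced with a directional kit. Per the submitters' processing notes the authors used FastQC, Trim Galore, STAR 2.7.3a, RSEM 1.3.3 and GRCm38 (mm10); the strand setting is not given in the sources used here. RSEM divides fragments among near-identical genes, so values of single copies can shift between libraries. The authors deposited RSEM expected counts and TPM per gene. Expected counts, rounded, were normalised with TMM, filtered with filterByExpr and fitted in 1 model of 12 libraries with edgeR 4.0.16 (quasi-likelihood F test, R 4.3.3), with Benjamini-Hochberg adjustment over 14838 genes and a threshold of 0.05. The SE was derived from the F statistic. DESeq2 1.42.0 and limma 3.58.1 were alternatives, as were other filters, offsets, left-out libraries and merged copies. The fit was checked on simulated data. Intervals for low counts are exact, at 95%, and cover counting error only; library totals were 19274762 to 31409066. Same-numbered gRc and vehicle libraries deviated together (correlations 0.460, 0.271 and 0.860); the labels name no shared batch. The members, gene lists and tests were chosen with earlier results of these data known. Named genes were the 3 most abundant of each histone type, those past the threshold, the smallest p of each type where none passed, and members of Hist3 and Hist4; for the other lists, those of smallest p, with Slbp and Npat.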

Additional observations from a re-analysis of the deposited data

How the results depend on the processing

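Between H2O2 and vehicle the number of members called higher, 7 with edgeR, was 4 with no filter on low counts, 4 with at least 10 counts in every library and 1 in a fit of the 2 groups alone, and it ranged from 1 to 11 when single libraries were left out, with the 11 found without vehicle replicate 1. The number called lower, 0 with edgeR, was 1 with DESeq2 and 0 to 1 with single libraries left out. Between gRc+H2O2 and gRc the 4 called higher became 8 with DESeq2, 2 with no filter, 7 with GC correction and the replicate block, 13 without the 3 libraries that stood apart, and 0 to 2 with single libraries left out. Hist1h2ac kept its call between H2O2 and vehicle in each left-out-library fit. For the log2 ratio of the summed class (difference of mean log2 sums), summed TPM gave 0.18 between H2O2 and vehicle, 0.095 between gRc+H2O2 and H2O2 and 0.21 between gRc+H2O2 and gRc, and leaving out Hist1h1c gave −0.085, 0.26 and 0.21. Hist2h2bb between gRc and vehicle was −0.45, but 1.81 without the 3 libraries, where vehicle is replicate 2 alone at 0.0449 CPM, and −1.01 to 0.091 with single vehicle libraries left out. The causes of these shifts were not tested, except that fewer genes or libraries enter some fits by construction. A replicate block in the model turned the 7 and 4 calls into 7 and 5. It lost Hist1h4n (adjusted p = 0.056) and added Hist2h3b in the first, and lost Hist2h2bb (adjusted p = 0.0566) and added Hist1h1e and Hist1h3d in the second. Same-numbered libraries correlated at 0.440, 0.294 and −0.283 (H2O2 and vehicle) and 0.021, −0.496 and −0.550 (gRc+H2O2 and gRc), so the numbers do not pair these groups; for gRc and vehicle the block left 0 calls. Over all alternatives for the counts and sums, 196 values stayed close to the main value. Of the others, 15 counts were over 1.5 times lower and 7 were that much higher or above a main count of 0. Another 5 sums moved by more than the replicate spread. A change of sign was counted only for sums whose groups did not overlap, and 1 such sum changed sign. The overlapping sum of gRc+H2O2 against H2O2 also changed sign, with the values given above. Merging the groups of genes that share sequence was added after seeing the data and gave 7 and 6. Most members had few counts, which limits what a missed threshold says about them.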
